A study of Mus musculus with 3 samples.

Results

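The 271 regions described here are HIF1A peaks on autosomes that drew many sequencing tags and were listed in both ChIP replicates of hypoxic mouse melanocytes. They were chosen by measured values: a replicate 1 peak on chromosomes 1 to 19 had to hold at least 200 ChIP tags, overlap a replicate 2 peak by at least 1 bp and lie outside 1 Mb windows that held 8 or more peaks in either list. They make up 271 of the 3055 peaks of replicate 1 and meet 280 of the 2680 peaks of replicate 2, since 9 of them overlap a pair of replicate 2 peaks.

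The cells were melan-Ink4a-Arf-null, a permanent melanocyte line whose labels give the genotype Cdkn2a tm1RDp/tm1RDp. Both ChIP replicates and the input came from this line, kept in 1% oxygen for 24 hours in medium with 10% fetal bovine serum, 200 nM 12-O-tetradecanoylphorbol 13-acetate and 200 pM cholera toxin. Every sample was crosslinked in 1% formaldehyde for 9 minutes. The 2 ChIP samples were made with 10 µg of the HIF1A antibody AF1935 and the 1 input sample with none. Every sample was hypoxic, so no oxygen comparison was possible, and the labels do not say whether the replicates were separate cultures. With 1 line and 2 libraries, the spread between replicates may be technical.

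HIF1A is the subunit of hypoxia-inducible factor 1 whose amount follows oxygen. In oxygenated cells prolyl hydroxylases mark it for destruction through the von Hippel-Lindau protein, and in low oxygen it persists, pairs with ARNT and binds short hypoxia response elements in promoters and enhancers. Its textbook targets serve glycolysis, glucose uptake, blood vessel growth and feedback on the oxygen sensors themselves. Melanocytes, the pigment cells of skin and hair, live in a mildly hypoxic niche, and the study asked where HIF1A sits on their chromatin. Gene names, DNA sequence and motifs are not given for the regions, because positions are in the mouse build mm9 and the gene and promoter tables used here describe GRCm38. Whether each region holds a hypoxia response element was therefore not examined, and the peak lists hold no expression values against which the labelled cell type could be checked.

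The libraries were deep, with 94716495 tags in replicate 1 and 103139204 in replicate 2. Peaks were called by the authors in each library separately, but against the same control of 98309297 tags, so the replicates share that control. Unique tags made up 80.3% of replicate 1, 84.3% of replicate 2 and 66.4% of the control. Each peak carries the authors' own number of ChIP tags, fold enrichment over local background, 10 times the -log10 p-value (the p-based score, whose strongest peaks pile up at 3100) and false discovery rate. These describe a peak within its own list. The lists differ in depth and in estimated fragment size (68 and 53 bp), so values of a site in both lists are set side by side and no difference between lists was tested. The 271 regions held 99366 tags in replicate 1, which is 21.6% of the tags in all its peaks and 0.105% of the library's total tags. Their partners in replicate 2 held 71091 tags, or 20.5% of the tags in peaks and 0.0689% of the library's total tags.

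Of the 3055 peaks of replicate 1, 2261 lay on autosomes, 1789 of those lay outside the peak-dense windows, and 344 of those held at least 200 tags. A replicate 2 peak overlapped 271 of the 344, which is 78.8% (exact binomial 95% interval 74.1 to 83.0%, counting error only), whereas over autosomal peaks of any tag number outside the windows the share was 43.4%. The overlap is part of the rule, so nothing is read from this difference. The windows had taken away 91 autosomal peaks with 200 or more tags. The tag limit cuts through a continuous range. Just inside it were sites on chromosome 1 (155411459 to 155412535, 200 tags, 8.50-fold), chromosome 8 (86721893 to 86722816, 200 tags, 3.85-fold) and chromosome 6 (115803274 to 115804045, 1 tag more, 3.56-fold). Just outside it were shared peaks on chromosome 11 (34495165 to 34495804, 199 tags, 5.32-fold), chromosome 1 (93390787 to 93391524, 198 tags, 5.00-fold) and chromosome 14 (65976783 to 65977645, 198 tags, 6.37-fold). In replicate 2 the 3 sites just inside held 68, 162 and 206 tags and the 3 peaks just outside held 262, 168 and 146, so the sets on either side of the limit overlapped in the other library.

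The peaks with 200 or more tags that had no partner in replicate 2 numbered 73 and sat low in the cloud of tags against fold. Their fold had a median of 4.01 (2.56 to 9.91), none reached 10-fold and 56 were under 5-fold. For the 271 sites the median in the same list was 8.21 (quartiles 6.04 and 11.4, range 3.20 to 39.43). In replicate 2, on which the tag limit was not set, the partners of the 271 had a median of 4.90. That is below the median of 5.68 over all peaks of replicate 2, with no chromosome or window left out. It is above the replicate 2 median of 4.42 at the 506 shared autosomal peaks outside the windows with under 200 replicate 1 tags. Of the 271, 140 (51.7%) had 200 or more tags in replicate 2, beside 6 of those 506 (1.19%). Over all peaks of replicate 2 the upper quartile was 135 tags and the 90th percentile 233.1. The sites were chosen for high tags in replicate 1, so nothing is read from this difference. Most of the 73 were near the limit: 54 of the 139 peaks with 200 to 249 tags lacked a partner, against 4 of 57 with 250 to 299, 9 of 68 with 300 to 399, 6 of 47 with 400 to 599 and 0 of 33 with 600 or more. The 5 with most tags were long and weakly enriched. They lay on chromosome 17 (84584954 to 84587950, 529 tags over 2997 bp, 2.77-fold), chromosome 6 (108609007 to 108611749, 497 tags, 4.06-fold), chromosome 11 (85649206 to 85652072, 455 tags, 3.73-fold), chromosome 13 (40824867 to 40827431, 438 tags, 3.19-fold) and chromosome 3 (58219068 to 58221278, 435 tags, 3.6-fold). Tags in replicate 2 at these places are not part of the lists, so their signal in that library was not examined.

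**Figure D1:**
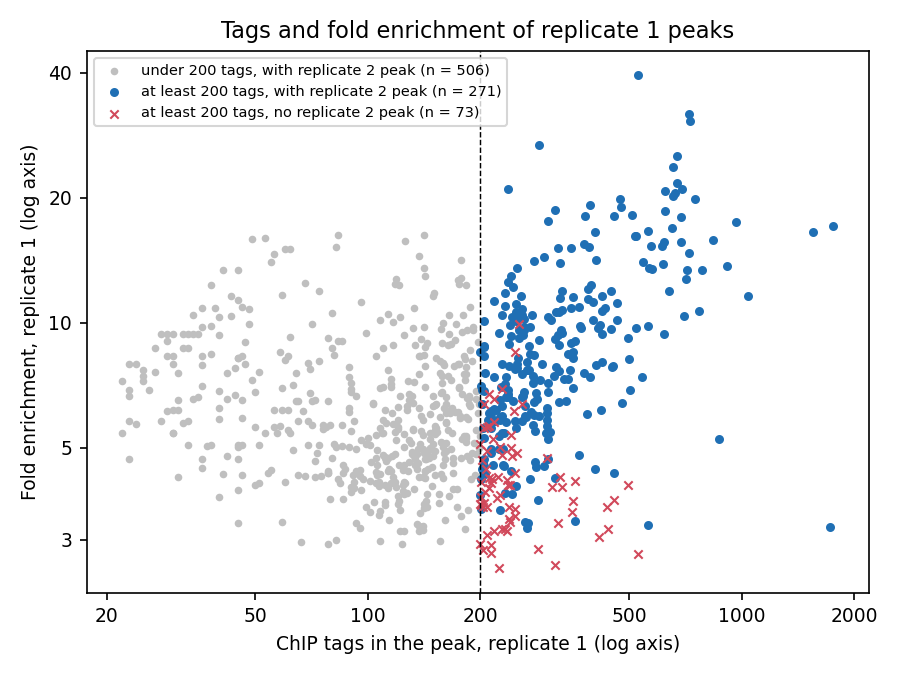
ChIP tags (x, log axis) and fold enrichment over local background (y, log axis) of replicate 1 autosomal peaks outside peak-dense windows, 1 mark per peak, with the 200-tag limit dashed. The 271 sites with a replicate 2 peak (blue) reach 39.43-fold, while the 73 without one (crosses) have a median of 4.01-fold and the 506 shared peaks under the limit are in grey.

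The site with most tags was on chromosome 8 at 86422200 to 86424285, with 1757 tags at 17.10-fold in replicate 1 and 1169 tags at 11.87-fold in replicate 2. Its summits, the positions of highest tag pileup in each list, were 4 bp apart and its score was 3100 in both lists. The next by tags was of another kind: the chromosome 14 region at 45290147 to 45293780 held 1718 and 2117 tags in replicates 1 and 2 over 3634 and 3665 bp, yet was enriched 3.22-fold and 3.17-fold. Its summits were 1913 bp apart, the widest separation of the 271. High tag numbers thus occurred at both ends of the fold range.

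Next by tags were the chromosome 4 site at 133311747 to 133314068 (1554 tags at 16.55-fold in replicate 1, 1078 at 11.18-fold in replicate 2) and the chromosome 10 site at 17441577 to 17443493 (1039 and 730 tags, 11.62-fold and 7.20-fold). The chromosome 9 site at 108381024 to 108382534 followed with 964 and 664 tags at 17.52-fold and 9.86-fold. The chromosome 19 site at 32462414 to 32464134 had 784 and 541 tags at 13.36-fold and 8.39-fold, with summits 3 bp apart. The chromosome 11 site at 74643409 to 74645080 had 770 and 551 tags at 10.68-fold and 6.82-fold, with summits 4 bp apart. In all 5, replicate 1 had the higher tags and fold.

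Of the 10 sites with most tags, 4 were called as 1 peak in replicate 1 but met a pair in replicate 2. In the 45290147 region on chromosome 14 nearly all of the overlap fell to 1 of the pair, and in the other 3 the pair divided the site. On chromosome 14, the 2329 bp site at 26276862 to 26279190 (911 tags, 13.73-fold) met replicate 2 peaks of 304 tags (7.46-fold) and 316 tags (7.29-fold). On chromosome 5, the 1793 bp site at 53980247 to 53982039 (839 tags, 15.84-fold) met peaks of 264 tags (8.33-fold) and 323 tags (7.93-fold). On chromosome 6, the 2853 bp site at 125114700 to 125117552 (868 tags, 5.23-fold) met peaks of 352 tags (4.32-fold) and 247 tags (3.63-fold). In each of the 3, both members of the pair were of like fold in replicate 2. For the chromosome 5 site the partner of larger overlap was the one with fewer tags, and the summits compared were 914 bp apart.

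The 10 leading sites by mean rank of fold over both lists came next. The first, on chromosome 3 at 122967209 to 122968159, was 951 bp long in replicate 1 and 752 bp in replicate 2, with 39.43-fold and 25.68-fold enrichment on 528 and 444 tags. On chromosome 9, the site at 13338448 to 13339506 (725 and 544 tags, 31.81-fold and 22.31-fold) and that at 44728679 to 44729755 (728 and 604 tags, 30.64-fold and 22.37-fold) had a score of 3100 in both lists. Chromosome 8 held 3 of the first 10: 32297257 to 32298404 (673 and 566 tags, 25.23-fold and 18.65-fold), 47636719 to 47637799 (656 and 630 tags, 20.19-fold and 15.34-fold) and 3671879 to 3672884 (672 and 465 tags, 21.73-fold and 11.80-fold). At the last of these the summits were 166 bp apart, and at the other 9 of the first 10 they lay 1 to 27 bp apart.

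The rest of the first 10 were on chromosomes 19, 16, 4 and 6. The chromosome 19 site at 26919296 to 26920608 held 656 and 513 tags at 23.73-fold and 16.73-fold, and the chromosome 4 site at 108952160 to 108953268 held 623 and 569 tags at 20.77-fold and 15.01-fold. The shortest was the chromosome 16 site at 86820944 to 86821563, where 237 tags over 620 bp gave 20.97-fold in replicate 1 and 271 tags gave 17.44-fold in replicate 2. That site lay only 37 tags above the limit, and it was the one of these 10 with more tags in replicate 2. The chromosome 6 site at 136416632 to 136417758 (691 and 543 tags, 20.98-fold and 12.93-fold) had a score of 3132.95 in replicate 1, the highest of the list, and a false discovery rate of 0%, against 100% in replicate 2.

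Fold of at least 10 was reached by 97 of the 271 sites in replicate 1, where 9.36% of all peaks did, and by 24 in replicate 2 (8.86%), where 9.59% of all peaks did. The first share follows from a choice made on replicate 1 tags, and nothing is read from it. The share in replicate 2 was near the background of that list. All 24 sites were among the 97. They lay on 9 chromosomes, with 5 each on chromosomes 4 and 8 and 4 on chromosome 9, and held 237 to 1757 tags in replicate 1 and 187 to 1169 in replicate 2. At the low end, 37 sites (13.7%) on 17 chromosomes were under 5-fold in both lists, with medians of 241 and 172 tags in replicates 1 and 2. Among the 506 shared peaks under 200 tags, 30.8% were under 5-fold in both. In replicate 2 taken by itself, 138 of the 271 sites (50.9%) were under 5-fold, beside 61.7% of those 506. Over all peaks of replicate 2 the lower quartile of fold was 4.357 and the median 5.68. A smaller share of that whole list than of the sites was therefore under 5-fold. In replicate 1 these 37 had a median length of 1056 bp and 209.6 tags per kb, and the 24 strong sites 1078.5 bp and 576.65 tags per kb. In replicate 2 the 37 had 657 bp and 236.3 tags per kb, and the 24 had 929 bp and 578.7 tags per kb.

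Tags, the value the sites were chosen on, went with both fold and length in replicate 1. Across the 271 sites Spearman's rho was 0.57 between tags and fold, 0.52 between tags and length and -0.03 between fold and length. In replicate 2 the same values were 0.61, 0.80 and 0.37. These describe sites of 1 library that share its depth and its control, and carry no test. The 200-tag limit shapes the replicate 1 values, and nothing is read from the difference between the lists. In replicate 1 the sites were 440 to 3634 bp long (median 1006) and in replicate 2 332 to 4080 bp (median 723). The replicate 2 peak was the shorter at 254 sites (93.7%), beside 88.8% of all 777 paired autosomal peaks outside the windows. It lay wholly inside the replicate 1 peak at 209 sites (77.1%), beside 68.6%.

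The fold was higher in replicate 1 at 263 of the 271 sites (97.0%), while over all 777 paired autosomal peaks outside the windows it was so at 81.7%. The sites were chosen for high replicate 1 tags, so nothing is read from this difference. Choosing with the lists exchanged, on 200 or more tags in replicate 2, gave 149 sites, of which 145 also had 200 or more tags in replicate 1. Fold was higher in replicate 1 at 140 of the 149 (94.0%), with median folds of 10.09 in replicate 1 and 6.32 in replicate 2. Since 145 of the 149 met the tag limit in both lists, the exchanged choice is not an independent check. The ratio of replicate 1 to replicate 2 fold had a median of 1.60 over the 271 sites (quartiles 1.34 and 1.89) and 1.22 over the 506 shared peaks under 200 tags. Tags, on which the sites were chosen, were higher in replicate 1 at 253 sites (93.4%), beside 75.2% of the 777. Library depth was lower in replicate 1, and what sets the difference in fold was not tested.

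The largest ratios were on chromosome 4 at 84190915 to 84192090 (7.97-fold and 2.78-fold, on 293 and 113 tags), on chromosome 14 at 117323946 to 117325201 (15.14-fold and 5.36-fold, 322 and 116 tags) and on chromosome 4 at 102183215 to 102184072 (26.75-fold and 10.14-fold, 286 and 187 tags). Only 3 of the 271 sites had a higher fold in replicate 1 than the last. Fold was higher in replicate 2 at 8 sites, 7 of them between 3.20-fold and 5.62-fold in replicate 1. The exception was the chromosome 1 site at 135490992 to 135492717, with 400 tags at 10.12-fold in replicate 1 and 470 tags at 12.14-fold in replicate 2, at nearly equal lengths of 1726 and 1724 bp. The lowest ratio was 0.823, at 84972232 to 84974044 on chromosome 1 (3.20-fold and 3.89-fold), and the site at 115803274 on chromosome 6 had 0.92.

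**Figure D2:**
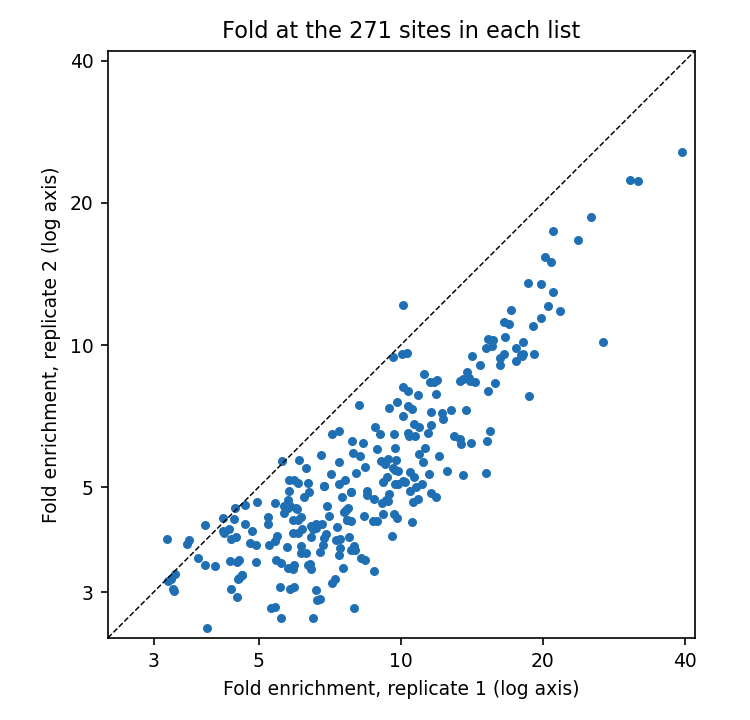
Fold enrichment of each of the 271 sites in replicate 1 (x, log axis) and in the replicate 2 peak of largest overlap (y, log axis), 1 point per site, with equality dashed. Points lie below the line at 263 sites, and the site farthest above it among the stronger ones has 10.12-fold and 12.14-fold.

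The position of the summit was not used to choose the sites. The distance between the replicates' summits had a median of 26 bp, with quartiles of 10 and 68 bp. Summits were within 50 bp at 186 of the 271 sites (68.6%, 62.7 to 74.1%), beside 68.0% of all 777 paired autosomal peaks outside the windows. At the 506 shared peaks with under 200 tags the median was 27.5 bp and 67.6% (63.3 to 71.7%) were within 50 bp. The intervals give counting error only, and the sets were not tested against each other. The shift had no preferred side: the replicate 2 summit was at the higher coordinate at 132 sites, at the lower at 134 and at the same base at 5. Summits stood near the middle of the replicate 1 peak, at a median of 51.5% of its length (quartiles 43.7 and 62.1%).

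Within the 271, summits lay closer where fold was higher. With the sites cut into 4 nearly equal parts by replicate 1 fold, from lowest to highest, the median distance was 49.5, 33, 18 and 14.5 bp. By tags it was 28 bp at 200 to 249, 36 bp at 250 to 299, 34 bp at 300 to 399, 17 bp at 400 to 599 and 11 bp at 600 or more. The 24 sites of at least 10-fold in both lists had a median of 10 bp, with 20 within 50 bp, and the 37 under 5-fold in both had 49 bp, with 20 within 50 bp. No test was made, since the sites come from the same 2 libraries.

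Summits over 200 bp apart were found at 17 of the 271 sites (6.27%, 3.70 to 9.85%) and at 12 of the 506 shared peaks with fewer tags (2.37%, 1.23 to 4.11%). The 506 were shorter, with median lengths of 569 and 455 bp in replicates 1 and 2, against 1006 and 723 bp for the sites. The shares were not compared at equal length. Of the 17, 15 were longer than the median site, 7 were under 5-fold in both lists and 3 met a pair of replicate 2 peaks. Their median length in replicate 1 was 1601 bp, against 979.5 bp for the other 254. The 3 widest separations were 1913 bp at 45290147 on chromosome 14, 1523 bp at 84972232 on chromosome 1 and 1141 bp at 19198723 to 19201024 on chromosome 1. At the last, a 2302 bp peak with 405 tags (4.45-fold) met a 365 bp replicate 2 peak with 59 tags (4.52-fold) near its start. Among the 5 sites with summits on the same base were 125977489 to 125978366 on chromosome 2 (7.39-fold and 6.59-fold), 148177879 to 148179091 on chromosome 4 (18.13-fold and 10.17-fold) and the longer chromosome 6 site at 125114700.

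**Figure D3:**
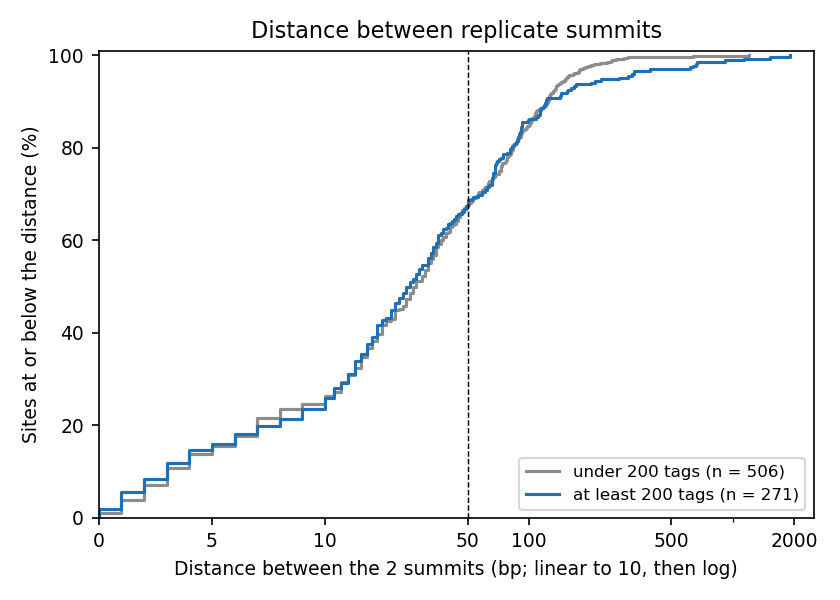
Share of sites (y, %) whose replicate summits lie at or below a given distance (x, bp, linear to 10 and then log), for the 271 sites (blue) and the 506 shared autosomal peaks with under 200 tags (grey); 50 bp is dashed. The curves run close together, with medians of 26 and 27.5 bp, and part above 200 bp, where 6.27% and 2.37% of the sets remain. Peaks of the grey set are shorter.

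The authors' false discovery rates were high at many of these sites, above all in replicate 2, where they were high over the whole list. A rate of 100% stood at 9 of the 271 sites in replicate 1, where 54.3% of all peaks had it, and at 59 in replicate 2 (21.8%), where 54.7% had it. The lowest rate of the sites in replicate 2 was 59.50% and the median 69.9%, against a median of 25% in replicate 1. Over all peaks of replicate 2 the lowest rate was 58.72% and the median 100%, so the sites' lowest rate was near the lowest of that list. At most 25% was reached by 136 sites in replicate 1, which are 136 of the 218 peaks of that list at or under this rate. The rates of replicate 1 come from the tags the sites were chosen on, and nothing is read from these shares. All 9 sites at 100% in replicate 1 were under 5-fold in both lists. In replicate 2 a rate of 100% occurred in both classes, at 8 of the 24 sites of at least 10-fold in both lists and at 19 of the 37 under 5-fold. The p-based score was 3100 or more at 11 sites in replicate 1 and at 4 in replicate 2, and these 4 were among the 11. All 4 had a rate of 100% in replicate 2. None of the 506 shared peaks under 200 tags reached 3100 in either list. Over all peaks the 90th percentile of the score was 415.104 in replicate 1 and 331.809 in replicate 2. The score rests on the same tags as the choice of sites in replicate 1, and nothing is read from these counts.

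The sites were spread over all 19 autosomes, from 5 each on chromosomes 12 and 19 to 28 on chromosome 4. Chromosome 4 held 10.3% of them and 6.99% of all autosomal replicate 1 peaks outside the windows, chromosome 9 held 8.49% and 6.48%, and chromosome 8 held 6.27% and 4.47%. Chromosome 12 held 1.85% of the sites and 4.19% of the peaks, and chromosome 2 held 4.8% and 6.76%. Put otherwise, 22.4% of the peaks on chromosome 4 and 6.67% of those on chromosome 12 were among the 271, against 15.2% over all autosomes. These shares were not tested.

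**Figure D4:**
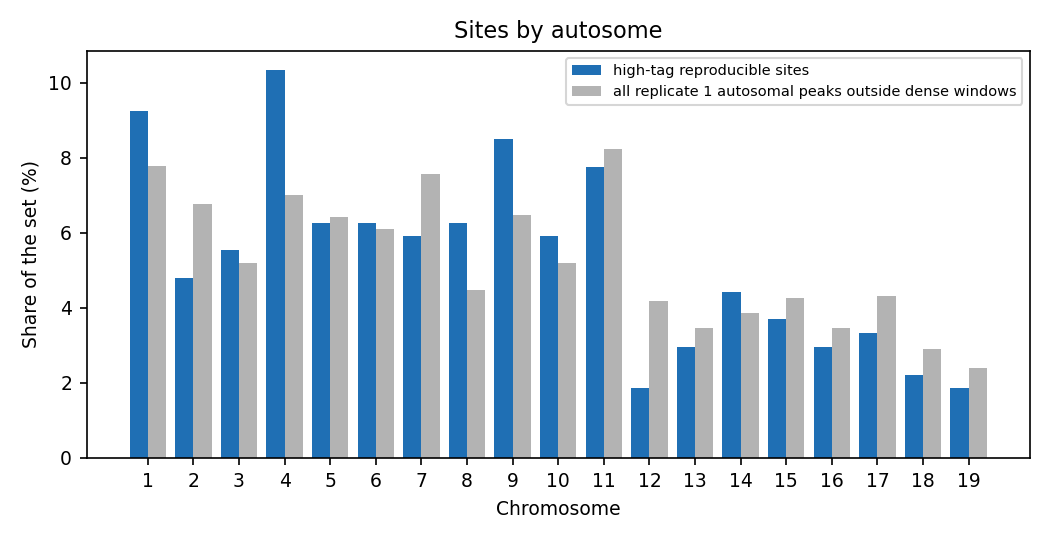
Share of the 271 sites (blue) and of all 1789 replicate 1 autosomal peaks outside peak-dense windows (grey) on each autosome (x), in percent (y). Chromosome 4 has the highest share of sites (10.3%) and chromosomes 12 and 19 the lowest (1.85%).

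Most sites were the only site in their 1 Mb window. They occupied 220 windows of 1 Mb, of which 177 held 1 site and none held more than 4. The nearest other replicate 1 peak was a median of 160805 bp away. It was farther, at 237563 bp, for the 506 shared peaks under 200 tags, and at 146952 bp for the 73 without a partner. Over all replicate 1 peaks, dense windows included, it was 28824 bp. Removing dense windows sets this in part, and wide spacing was not particular to the sites. Another peak of replicate 1 lay within 10 kb of 45 sites (16.6%), and 16 sites (5.90%) formed 8 pairs within 10 kb of each other. The lower quartile of the neighbour distance was 29936.5 bp for the sites and 52149.5 bp for the 506. Over all replicate 1 peaks, dense windows included, it was 627 bp, so a larger share of them had a neighbour within 10 kb. The closest strong pair was on chromosome 4, where the site at 133309555 to 133311332 (748 and 509 tags, 19.85-fold and 13.48-fold) ended 415 bp before the site at 133311747, so that both members were above 10-fold in both replicates. On chromosome 1, sites at 91473505 to 91474430 (18.12-fold and 9.57-fold) and 91476121 to 91476902 (17.58-fold and 9.27-fold) were 1691 bp apart and nearly equal in each list. On chromosome 10, 1612 bp separated 126775964 to 126776851 (16.51-fold and 9.58-fold) from 126778463 to 126779633 (14.00-fold and 8.38-fold). Chromosome 15 held 2 such pairs: 79335927 to 79336893 (16.20-fold and 9.39-fold) with 79341703 to 79342429 (10.21-fold and 5.12-fold), and 72891024 to 72891890 (11.41-fold and 6.50-fold) with 72897467 to 72898517 (8.41-fold and 5.51-fold).

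A pair on chromosome 8 differed from these. The sites at 20010660 to 20012658 (4.23-fold and 4.0-fold) and 20012902 to 20015926 (3.26-fold and 3.19-fold) lay 244 bp apart at low fold with many tags, 317 and 561 in replicate 1 and 189 and 856 in replicate 2. Their window borders a dense one that the rule removed. In all, 18 of the 271 sites lay in a window next to a dense one, and 4 of those 18 were under 5-fold in both lists, as were 33 of the other 253.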

How the data were processed

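Values are the authors' own. Per the file headers, MACS was run in Galaxy on each ChIP library against one control file, with a p-value threshold of 1e-05, tag size of 25 bp, band width of 300 bp and local background over the peak and 1000, 5000 and 10000 bp. Version 1.4.2 of MACS and the build mm9 come from the submitters' processing notes, with an aligner not given in the sources used here. Each deposited list gives every peak's tag count (raw ChIP tags), fold ratio over local background, score (10 times the -log10 p-value) and false discovery rate in percent. The input's own data were not analysed here.

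Peaks were paired with the replicate 2 peak of largest overlap (pandas 2.3.3), and the number of sites was checked with bedtools 2.31.1. The pairing code was tested on simulated data. Medians, counts and exact (Clopper-Pearson) 95% intervals from scipy 1.17.1 are descriptions. Sites named are the 10 with most tags, the 10 best by mean fold rank, 3 on either side of the tag limit, 3 at each extreme of summit distance and fold ratio and the 5 peaks with most tags that lacked a partner. Close pairs, the exception among the 8 ratios under 1 and the sites in the closing observations were chosen after their values were seen. The sites, the rule and the settings were chosen with earlier results of these data known. Planned motif and gene steps were not run, because the reference tables are GRCm38.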

Additional observations from a re-analysis of the deposited data

How the results depend on the processing

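Of 69 values under alternative settings, 52 stayed within the spread between replicates, the binomial interval or 1.5 times the main count, and 17 moved. The spread between replicates rests on 2 medians and was wide for some results. Its limits were -6.749 to 56.75% for the false discovery rate and 18430 to 303200 bp for the neighbour distance. Staying within such limits says little, so the count of 52 is no measure of robustness. With at least 300 tags there were 133 sites, 89.86% of candidates were shared, the median fold was 10.65 and the median summit distance 18 bp. With a p-based score of at least 400 in both lists these were 86 sites, 46.99%, 14.03 and 15.5 bp, and with a fold of at least 10 in both they were 24 sites, 24.74%, 20.02 and 10 bp. Fewer peaks qualify by construction. The share was 67.99% with at least 150 tags and 70.06% with a reciprocal overlap of at least 50%. Peak centres in place of summits were 61 bp apart. Using 1 list alone gave 167 sites without replicate 1 and 347 without replicate 2, median false discovery rates of 68.42% and 27.52%, median folds of 6.32 and 6.99, lengths of 859 and 1029 bp and neighbour distances of 184361 and 153333 bp. No paired analysis of ChIP against input was possible, because there was 1 input sample for the 2 ChIP samples. Shifting the window grid by 500 kb gave 274 sites, 257 of them among the 271. The planned correlation of fold between replicates was not run, because both lists share a control, nor were the motif and gene alternatives, which need the genome of the files' build. Counts of control tags in the sites were not used here, so depth under each fold is unknown on the control side.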

Other observations

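Choosing on replicate 2 instead (at least 200 tags, outside the windows) gave 154 autosomal peaks, of which 149 overlapped a replicate 1 peak and 145 of those partners held 200 or more tags. The 4 partners that fell short lay on chromosomes 1, 7, 11 and 17. The strongest was on chromosome 17 at 4626077 to 4626677 in replicate 2, with 255 tags at 23.53-fold there and 149 tags at 11.57-fold in replicate 1, a fold exceeded in replicate 2 by 1 of the 271 sites. The 5 replicate 2 peaks without a partner were at 2.70-fold to 3.35-fold, among them a 9247 bp peak on chromosome 1 at 90112486 to 90121732 with 2250 tags at 2.70-fold.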
